A study of Mus musculus with 3 samples.

Results

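The genes described here encode channels that open in response to acid or to force on the membrane: the acid-sensing channel genes Asic1, Asic2, Asic3 and Asic4, the mechanically gated channel genes Piezo1 and Piezo2, the Tmem63a, Tmem63b and Tmem63c genes, and Tmem150c. They were taken from a list of names, drawn up with earlier results of these data known, and all 10 were found among the 41388 genes in the files. RNA came from C57BL/6 mouse embryos with a Ret-EGFP reporter at 14.5 days post coitum, from their dorsal root ganglia, which hold the cell bodies of the somatosensory neurons. Ganglia of spinal levels T11 to S1 were dissociated, cells were sorted for fluorescence, and RNA was pooled into 3 libraries named A, B and D. The sort aimed at cells in which the reporter of the receptor gene Ret was on. Library A held 100 ganglia of 5 embryos, library B 100 ganglia of 6 embryos and library D 80 ganglia of 4 embryos, with both sexes in each pool. The genotype label writes the reporter as the transgene Tg(Ret-EGFP)SJ, whereas the series description places EGFP in the Ret locus of heterozygotes, so it is not known whether every Ret allele was intact. All libraries form 1 group with no control population, so genes were compared with each other within a library and no condition was compared with another.

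Acid-sensing ion channels are sodium channels of the DEG/ENaC family that assemble as trimers of the same or different ASIC subunits and open when extracellular pH falls. PIEZO proteins are very large trimeric cation channels opened by membrane tension. PIEZO2 serves touch and proprioception in sensory neurons, while PIEZO1 is best known from endothelium, red blood cells and other non-neuronal tissue. TMEM63 proteins are the animal relatives of the plant OSCA channels, which respond to osmotic and mechanical stress, and TMEM150C, also called tentonin 3, has been proposed as a component of slowly adapting mechanical currents, a role that is debated.

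The channel families consist of paralogs, so whether their reads can be told apart bears on every ratio below. Coding sequences of the longest complete coding transcripts in GENCODE M21 were compared. Aligned coding bases were 65.05% to 70.75% identical among the 6 Asic pairs and 65.9% identical between Piezo2 and Piezo1. They were 61.2% to 67.8% identical among the 3 Tmem63 pairs. The longest identical run between any pair of paralogs was 32 bases, shared by Asic2 (coding bases 802 to 833) and Asic1 (coding bases 751 to 782). It is shown 5′ to 3′ in capitals, with 20 flanking bases on each side in lower case, because it is the place in the family where a short read is least able to name its gene.
Asic2: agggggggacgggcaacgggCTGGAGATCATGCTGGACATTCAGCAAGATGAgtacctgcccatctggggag
Asic1: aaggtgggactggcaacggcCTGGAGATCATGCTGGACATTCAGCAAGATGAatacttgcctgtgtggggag

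The other paralog pairs shared runs of at most 22 bases, over all annotated transcripts of the genes. In the Tmem63 family the most similar stretch of 90 bases had 61 bases common to all 3 genes, shown in capitals, at coding bases 1672 to 1761 of Tmem63b, 1630 to 1719 of Tmem63a and 1594 to 1683 of Tmem63c.
Tmem63b: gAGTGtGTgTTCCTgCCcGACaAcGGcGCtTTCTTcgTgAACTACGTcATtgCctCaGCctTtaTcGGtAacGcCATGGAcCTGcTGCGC
Tmem63a: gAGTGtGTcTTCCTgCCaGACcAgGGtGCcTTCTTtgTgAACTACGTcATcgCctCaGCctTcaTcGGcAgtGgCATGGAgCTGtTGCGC
Tmem63c: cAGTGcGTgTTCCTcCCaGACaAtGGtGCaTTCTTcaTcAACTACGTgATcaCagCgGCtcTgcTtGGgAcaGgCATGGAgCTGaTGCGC

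Libraries A, B and D had total counts of 20181558, 20355302 and 29061086. Levels are given as TPM, the usual length-scaled share of a library, computed from the deposited counts and the deposited exon lengths, and each mean is over 3 libraries with its SD. The median level of 10 sensory neuron markers was 681 ± 98.4 TPM, led by the neuronal tubulin gene Tubb3 at 14755 TPM, with the sodium channel gene Scn9a lowest at 102 TPM. The median was 13.4 ± 2.70 TPM for 8 markers of Schwann and satellite glia (S100b 343 TPM to Foxd3 0.311 TPM), 13.2 ± 8.11 TPM for 6 erythroid markers (Hbb-bs 56.6 TPM to Slc4a1 0.0687 TPM) and 3.15 ± 1.85 TPM for 6 mesenchyme markers (Col1a1 11.4 TPM to Pdgfra 0.313 TPM). Col1a1 led through library B, with 3.68 TPM in A, 28.4 TPM in B and 2.32 TPM in library D, a mean of 3.00 TPM without B, and it varied between libraries (edgeR goodness of fit, adjusted p = 5.8e-05). The median was 0.773 ± 0.561 TPM for 6 macrophage markers (C1qa 1.19 TPM to Ptprc 0.10 TPM) and 0.287 ± 0.0932 TPM for 8 endothelial markers (Pecam1 2.40 TPM to Flt1 0.0732 TPM). No marker gene was without counts in all libraries. In these bulk samples, fewer cells of a type and less RNA per cell cannot be told apart.

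Of the 10 channel genes, 7 reached a mean of 1 TPM, where 33.6% of all listed genes and 55.5% of listed protein-coding genes did so. Their median was 26.5 ± 7.70 TPM, at 30.9 TPM in A, 31.0 TPM in B and 17.6 TPM in library D. Over the 17020 protein-coding genes with a count the median was 5.49 ± 0.942 TPM, and it too was lowest in library D. A lower median TPM in D was therefore not particular to the channel genes. On the TMM-normalised scale used further on, the 7 channel genes tested had a median log2 difference of only -0.03 in D. The levels fell into a group of 7 genes between 10.7 and 74.0 TPM and a group of 3 genes (Asic4, Tmem63a and Piezo1) between 0.0864 and 0.523 TPM. Each of the ASIC, PIEZO and TMEM63 families had 1 member in the low group.

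**Figure D1:**
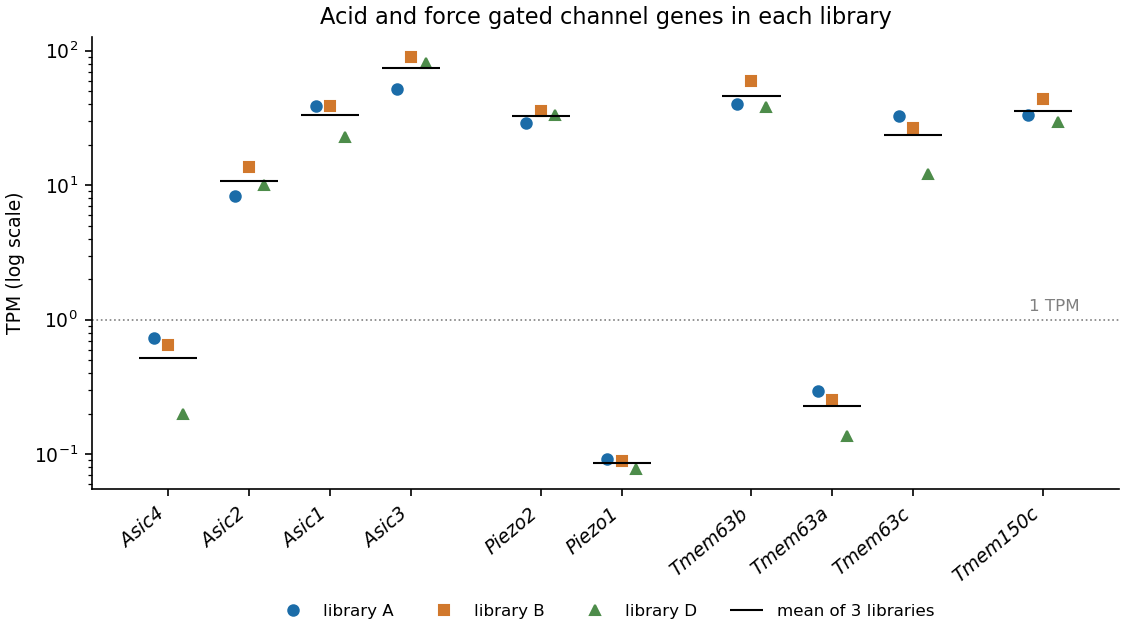
TPM of the 10 channel genes on a log scale, with 1 symbol per library, a line at the mean of 3 libraries and a dotted line at 1 TPM. Asic4, Piezo1 and Tmem63a lie below 1 TPM in every library, and the other 7 genes lie above 8 TPM in every library.

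Asic4 (ENSMUSG00000033007, chromosome 1, 75450436 to 75474343, GRCm38.p2) encodes a subunit that does not form an acid-gated channel on its own. It had 15 counts in A, 14 in B and 7 in library D, or 0.725, 0.645 and 0.198 TPM (mean 0.523 ± 0.284 TPM). With so few counts the exact 95% Poisson interval ran from 0.406 to 1.20 TPM in A, from 0.352 to 1.08 TPM in B and from 0.0798 to 0.409 TPM in library D. The intervals of A and D overlapped only narrowly. These intervals cover counting error only, since no molecular identifiers are described and PCR copies of a molecule are counted as further reads.

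Asic2 (ENSMUSG00000020704, chromosome 11, 80880169 to 81968457) encodes a subunit that joins the other ASICs and tunes their acid sensitivity. It had 267, 463 and 556 counts in A, B and D, or 8.26, 13.6 and 10.1 TPM (mean 10.7 ± 2.73 TPM). Library B was highest and A lowest. The 6 deposited genes that lie within the long Asic2 locus share no exonic bases with it.

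Asic1 (ENSMUSG00000023017, chromosome 15, 99670718 to 99701127) encodes the widely expressed neuronal ASIC, whose splice forms cannot be separated in counts per gene. It had 1103, 1161 and 1119 counts in A, B and D. On the larger total of D, these near-equal counts came to 38.7 TPM in A, 38.7 TPM in B and 23.0 TPM in library D (mean 33.5 ± 9.08 TPM), so that A and B lay together above D.

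Asic3 (ENSMUSG00000038276, chromosome 5, 24413451 to 24417834) encodes the ASIC most closely tied to sensory neurons, where its channels respond to the modest acidification of ischaemic or inflamed tissue. It had the highest mean of the 10 genes, at 74.0 ± 19.7 TPM, which placed it at rank 2100 of the 41388 listed genes. Its 762 counts in A gave 51.8 TPM, 1380 in B gave 89.2 TPM and 2036 in D gave 81.0 TPM, so that A lay apart below B and D. No exonic base of any Asic gene was shared with another gene in the files.

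Within the family, Asic4 made up 0.452 ± 0.278% of the summed ASIC level, Asic2 8.90 ± 0.642%, Asic1 28.7 ± 9.48% and Asic3 61.9 ± 9.44%. The same order held in all 3 libraries, and each of the 10 paralog ratios computed had the same sign in 3 of 3 libraries. Every one of these tests therefore gave an exact two-sided sign-flip permutation p of 0.25, which is the smallest that 3 libraries allow (Benjamini-Hochberg adjusted over the 10 pairs, 0.25). No ratio could pass a threshold of 0.05 in this design. The sizes and their spread are given instead.

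Shares sum to the whole family, so with Asic2 and Asic4 small, the shares of Asic1 and Asic3 must move in opposite directions. Asic1 made up 38.9% of the family in A, 27.2% in B and 20.1% in library D. Asic3 made up 52.1%, 62.7% and 70.9% of it in the same libraries. The log2 ratio of Asic1 to Asic3 was -0.42 in A, -1.20 in B and -1.82 in library D (mean -1.15 ± 0.70, 2.22-fold lower for Asic1). The exact 95% counting intervals of these ratios, -0.56 to -0.29 in A, -1.32 to -1.09 in B and -1.92 to -1.71 in library D, did not overlap. They cover counting error only, and neither gene was called as varying in the fit across all genes given further on. The ratio rests on the correction for length, from 3763 bases for Asic1 and 1942 for Asic3. Without it, as CPM, the mean log2 ratio was -0.19 ± 0.70 (exact sign-flip permutation p = 0.75), and Asic1 had more counts than Asic3 in A.

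Asic2 lay 6.91-fold below Asic3 (log2 -2.79 ± 0.19), the least variable ratio of the ASIC family, and 3.12-fold below Asic1 (log2 -1.64 ± 0.53). The counting intervals of Asic2 to Asic1 did not overlap between libraries either, the ratio being -2.23 in A, -1.51 in B and -1.19 in library D. Such intervals cover counting error only, and how often they part for other gene pairs was not tested. As CPM the log2 ratio of Asic2 to Asic3 was -1.65. Asic4 lay 23.0-fold below Asic2 (log2 -4.53 ± 1.08), 71.9-fold below Asic1 (log2 -6.17 ± 0.60) and 159-fold below Asic3 (log2 -7.31 ± 1.27). As CPM the log2 ratio of Asic4 to Asic2 was -5.17. The ratios of Asic4 depended on D, where it had 7 counts: without D, its log2 ratio to Asic3 was -6.63.

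**Figure D2:**
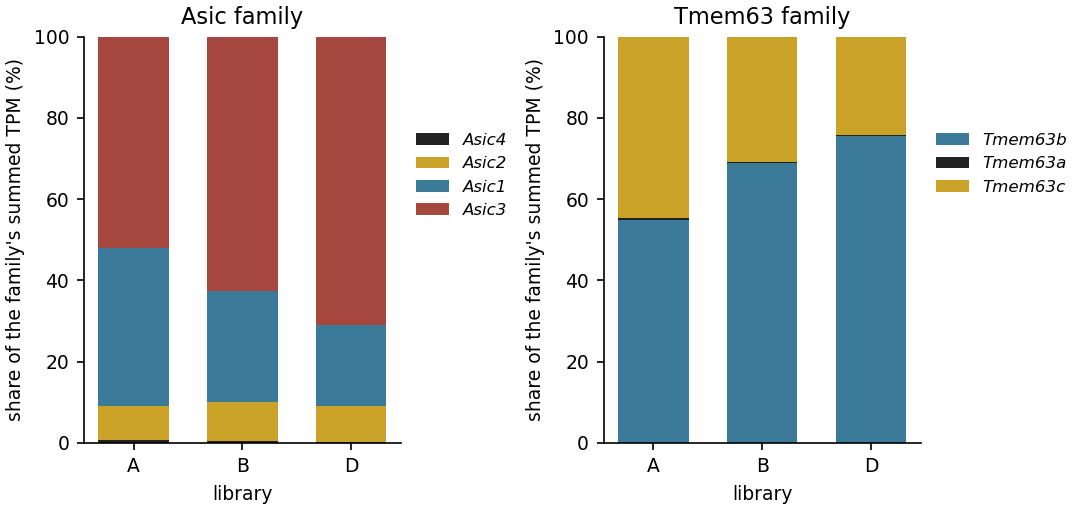
Stacked bars give each gene's share, in percent, of its family's summed TPM in libraries A, B and D, for the Asic family (left) and the Tmem63 family (right). Asic3 takes 52.1% to 70.9% of its family and Tmem63b 55.0% to 75.5%, both with the lowest share in A, and Asic4 and Tmem63a are barely visible.

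Piezo2 (ENSMUSG00000041482, chromosome 18, 63010213 to 63387183) encodes the touch and proprioception channel. It had 3222 counts in A, 4097 in B and 6223 in library D, the most of the 10 genes in every library. Its merged exons, of 14566 bases, were the longest of the 10, and its longest coding transcript measures 10724 bases. Per merged exon length its counts came to 29.2, 35.3 and 33.0 TPM (mean 32.5 ± 3.10 TPM). Its coefficient of variation of 9.55% was the lowest among the 7 genes above 1 TPM, which otherwise ranged from 20.8% to 44.0%.

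Piezo1 (ENSMUSG00000014444, chromosome 8, 122481698 to 122551329) was the lowest of the 10 genes, with 7 counts in A, 7 in B and 10 in library D. These gave 0.0929, 0.0885 and 0.0778 TPM (mean 0.0864 ± 0.00779 TPM), with exact 95% Poisson intervals of 0.0374 to 0.192 TPM in A, 0.0356 to 0.182 TPM in B and 0.0373 to 0.143 TPM in library D. The intervals overlapped widely. Of the 9933 exonic bases of Piezo1, 2441 (24.6%) are also exonic in Ctu2, a gene on the opposite strand that had 362, 452 and 318 counts. The strand setting of the counting is not given in the sources used here, so reads over these bases may have been left out or assigned to either gene.

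Piezo2 exceeded Piezo1 by a log2 ratio of 8.55 ± 0.23, or 376-fold, at 8.29 in A, 8.64 in B and 8.73 in library D. Each library's counting interval was wide because of the few Piezo1 counts, from 7.25 to 9.61 in A, 7.60 to 9.96 in B and 7.85 to 9.79 in library D. Taking only the exonic bases of each gene that no other gene shares as its length, the mean log2 ratio was 8.15. Adding 0.1 TPM to both genes, more than the level of Piezo1 itself, gave 7.45.

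Markers of the tissues best known for PIEZO1 were set beside it. The summed level of the 8 endothelial markers was 5.23 TPM in A, 4.27 TPM in B and 4.10 TPM in library D, with Tie1 at 0 counts in B. The summed level of the 6 erythroid markers was 72.2 TPM in A, 65.1 TPM in B and 260 TPM in library D. The erythroid sum was thus highest in D, where the Piezo1 level was lowest by less than counting error. In D, Hbb-bs held 115 TPM of that sum and Hbb-bt 99.7 TPM. The endothelial sum was highest in A and lowest in D, the same order as the Piezo1 level. Of the erythroid markers, Hbb-bs and Hbb-bt varied between libraries (edgeR goodness of fit, adjusted p = 0.0223 and 0.0267). The part of these cells in the Piezo1 level was not tested.

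Tmem63b (ENSMUSG00000036026, chromosome 17, 45660171 to 45686905) encodes an osmotically and mechanically sensitive channel and was the second highest of the 10 genes. It had 1550, 2409 and 2503 counts in A, B and D, or 40.1, 59.3 and 37.9 TPM (mean 45.8 ± 11.8 TPM), with B above the other two. Of its 5098 exonic bases, 394 (7.73%) are shared with genes on the opposite strand, among them Mrpl14.

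Tmem63a (ENSMUSG00000026519, chromosome 1, 180942344 to 180975112) encodes the paralog whose variants in human cause a myelination disorder. It had 10, 9 and 8 counts, or 0.294, 0.252 and 0.138 TPM (mean 0.228 ± 0.0807 TPM). The Poisson intervals, 0.141 to 0.540 TPM in A, 0.115 to 0.478 TPM in B and 0.0594 to 0.271 TPM in library D, overlapped. The glial markers summed to 490 TPM in A, 786 TPM in B and 879 TPM in library D, so that the library with the highest glial sum had the lowest Tmem63a level. The part of glia in this level was not tested.

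Tmem63c (ENSMUSG00000034145, chromosome 12, 87021340 to 87090043) encodes the third member of the family. It had 1009 counts in A, 868 in B and 645 in library D, or 32.5, 26.7 and 12.2 TPM (mean 23.8 ± 10.5 TPM). Although D was the deepest library, it held the fewest Tmem63c reads, and the coefficient of variation of 44.0% was the highest of the 7 genes above 1 TPM.

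Tmem63b exceeded Tmem63a by a log2 ratio of 7.69 ± 0.53, or 207-fold. Tmem63b also exceeded Tmem63c in each library, where the log2 ratio was 0.30 in A, 1.15 in B and 1.64 in library D (mean 1.03 ± 0.68, 2.04-fold). The counting intervals of this ratio, 0.19 to 0.42 in A, 1.04 to 1.27 in B and 1.51 to 1.77 in library D, did not overlap. Whether the ratio varied beyond the spread between libraries was not tested, and neither gene was called as varying on its own. Tmem63a lay 101-fold below Tmem63c (log2 -6.66 ± 0.17). Its counting intervals were wider than that SD, from -7.86 to -5.91 in A, -7.86 to -5.80 in B and -7.69 to -5.48 in library D. Tmem63b made up 66.4 ± 10.5% of the family's summed level, Tmem63a 0.323 ± 0.0697% and Tmem63c 33.3 ± 10.4%.

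**Figure D3:**
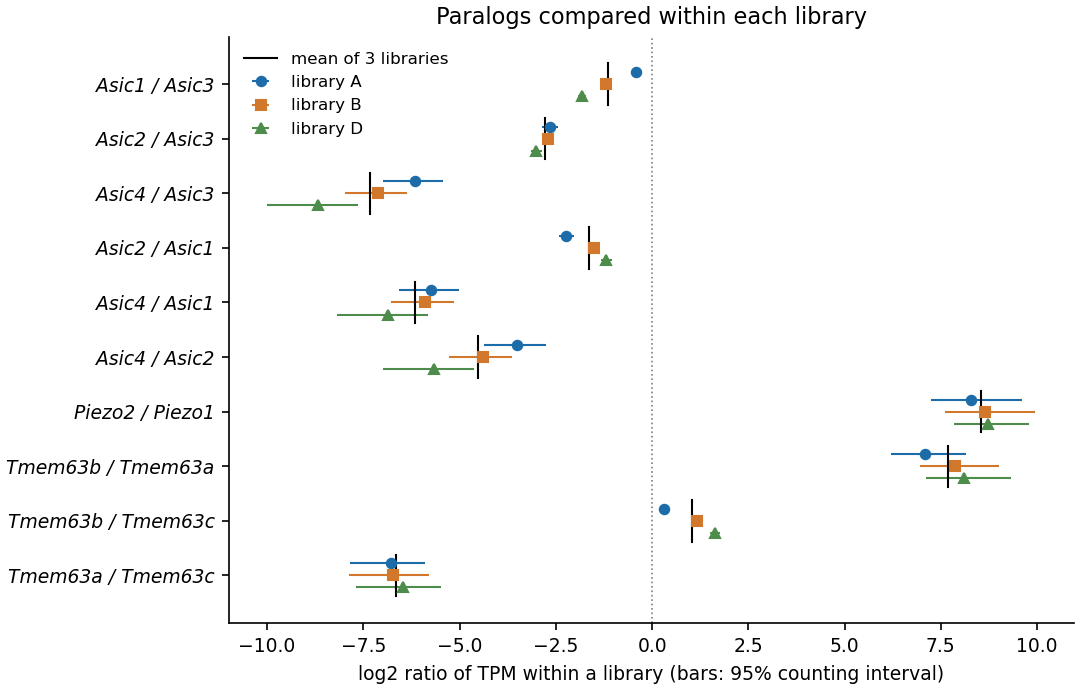
Log2 ratios of TPM for the 10 paralog pairs, with 1 symbol per library, bars for the exact 95% counting interval and a black line at the mean. No interval reaches 0, and the bars are widest for pairs that include Asic4, Piezo1 or Tmem63a. All 3 libraries stand apart for Asic1 to Asic3, Asic2 to Asic1 and Tmem63b to Tmem63c. Library D stands apart from both A and B for Asic2 to Asic3, narrowly from each. Libraries A and D alone stand apart for Asic4 to Asic3 and Asic4 to Asic2. The bars cover counting error only.

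Tmem150c (ENSMUSG00000050640, chromosome 5, 100077872 to 100159808) had 1391, 1930 and 2122 counts in A, B and D, or 33.0, 43.6 and 29.5 TPM (mean 35.4 ± 7.34 TPM). Library B was highest. Its deposited length is 5555 bases and its longest coding transcript in GENCODE M21 measures 3084 bases. That gap is wider than for Asic3 (1942 and 1853 bases), so the TPM of Tmem150c depends more on the gene model. Tmem150c was not alone in this, as gaps were also wide for Tmem63b (5098 and 3284 bases), Piezo2 (14566 and 10724 bases) and Tmem63a (4492 and 3306 bases). For Asic1 the longest coding transcript, of 4114 bases, exceeded the deposited 3763 bases. An annotated antisense gene, Tmem150cos, shares 212 exonic bases of Tmem150c and had 7, 1 and 3 counts.

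The order of the mean levels over all 10 genes was Asic3, Tmem63b, Tmem150c, Asic1, Piezo2, Tmem63c, Asic2, Asic4, Tmem63a and Piezo1. This order rests on scaling by length. As CPM, without that scaling, Piezo2 was highest at a mean of 192, and Asic3 stood at 58.5, below Tmem63b at 93.8 and Tmem150c at 78.9. The order under other lengths was not tested. On the TPM scale the middle of the order was not settled. Tmem150c and Asic1 differed by less than their spread (log2 0.10 ± 0.30), as did Asic1 and Piezo2 (0.01 ± 0.48) and Piezo2 and Tmem63c (0.56 ± 0.81), each with the first gene higher in 2 of 3 libraries. The other neighbours differed in the same direction in 3 of 3 libraries and by more than 1 SD. The smallest of those steps was from Tmem63b to Tmem150c (log2 0.36 ± 0.08), and the largest was from Asic2 to Asic4 (log2 4.53 ± 1.08).

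Whether any channel gene varied between the libraries beyond other genes of its level was tested in a fit across all genes (edgeR deviance goodness of fit, Benjamini-Hochberg adjusted). Of the 10 genes, 7 passed the filter on low counts, and Asic4, Tmem63a and Piezo1 did not. None of the 7 was called, where 24 of 13530 genes (0.177%) were called, and each had an adjusted p of 1.00. None had an unadjusted p under 0.05, where 6.11% of all genes tested did. DESeq2 marked none of the 7 as a dispersion outlier, against 4 genes in all (0.0296%). The lowest unadjusted p-values were 0.188 for Tmem63c and 0.215 for Asic3 (edgeR goodness of fit). A p that misses the threshold does not show that the libraries were alike.

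On the scale of log2 CPM after TMM normalisation, each library was set against the mean of the other 2. All 7 genes were higher in B than the mean of A and D, with a median difference of 0.30. The median over all 13530 genes was -0.01. Library B was not the highest for each gene, as Asic3 and Piezo2 had larger positive differences in D (0.59 and 0.38). Tmem63c had a larger one in A (0.68). The summed level of the mesenchyme markers was also highest in B, at 56.2 TPM beside 14.1 TPM in A and 15.4 TPM in D. Of the sum in B, Col1a1 alone held 28.4 TPM, whereas Pdgfra was highest in A (0.392 TPM, with 0.317 TPM in B). The median of the glial markers was highest in B too, at 16.4 TPM beside 12.6 TPM in A and 11.2 TPM in D, while their sum was highest in D. The part of either cell type in the differences of the channel genes in B was not tested. In A, 5 of 7 channel genes were lower (median -0.40, all genes 0.03), and in D 4 of 7 were lower (median -0.03, all genes -0.00485). The largest differences were -0.94 for Tmem63c in D, -0.89 for Asic3 in A, 0.68 for Tmem63c in A and -0.68 for Asic2 in A. The Asic3 difference lay just outside the range between the 5th and the 95th percentile of all genes in A, which ran from -0.86 to 0.89, and the other values, for all 7 genes, lay inside the matching range of their library.

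**Figure D4:**
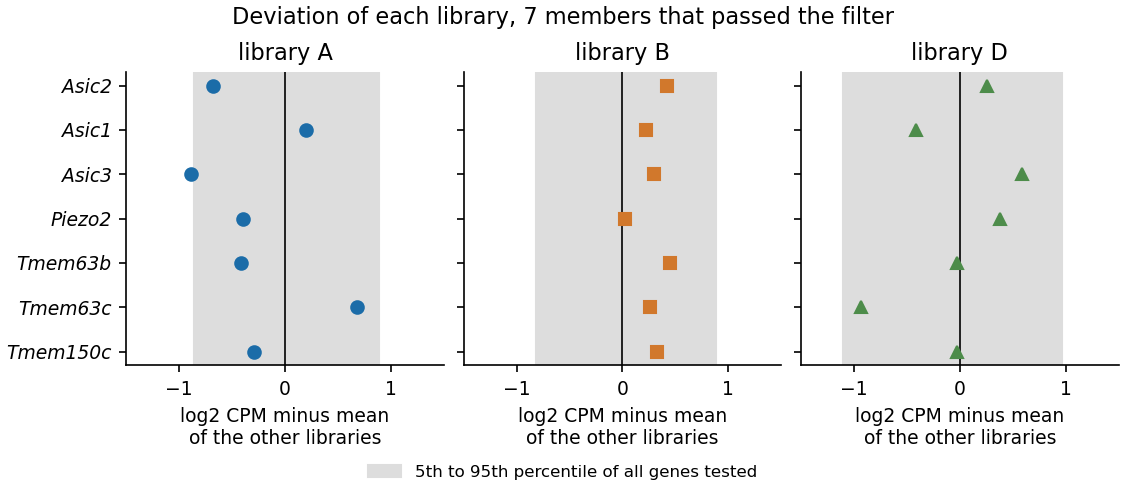
For each library, the difference of log2 CPM from the mean of the other 2 libraries is plotted for the 7 channel genes that passed the filter, over a grey band from the 5th to the 95th percentile of all genes tested. Asic3 in A, at -0.89, lies at the edge of the band, and in B all 7 genes lie right of 0.

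Other acid sensor genes were set beside the ASIC genes. Of 14 genes listed for this purpose, 5 reached 1 TPM, a share near the 33.6% of all listed genes and below the 55.5% of protein-coding genes, and the median of the list was 0.470 ± 0.0571 TPM. Pacc1 (listed as Tmem206), which encodes a proton-activated chloride channel, was the highest, at 54.4 TPM in A, 44.2 TPM in B and 38.7 TPM in library D (mean 45.8 ± 7.99 TPM). The heat and acid sensor gene Trpv1 followed at 6.66 ± 2.91 TPM, then the acid-inhibited potassium channel genes Kcnk3 (4.06 ± 1.28 TPM) and Kcnk1 (1.71 ± 0.703 TPM). Asic5, a further gene of the ASIC family, and Otop1, a proton channel gene of sour taste cells, had no counts in any library. A count of 0 was read as up to 3 counts, or 0.149 CPM in A, 0.147 CPM in B and 0.103 CPM in D. That limit was a fixed setting and not the exact Poisson interval used for the levels above.

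Among other genes for mechanically gated channels or candidates, 8 of 14 reached 1 TPM, a share near the 55.5% of protein-coding genes, and the median of the list was 6.48 ± 3.52 TPM. Tmem120a, which encodes the membrane protein TACAN whose role as a channel is debated, had 196, 198 and 118 TPM in A, B and D (mean 171 ± 45.7 TPM). Lrrc8a, the essential subunit of the volume-regulated anion channel, had 113, 185 and 128 TPM (mean 142 ± 38.3 TPM). Kcnk10, the gene of the stretch-activated potassium channel TREK-2, was nearly constant at 24.0, 25.6 and 23.1 TPM (mean 24.2 ± 1.24 TPM). Tmem120b stood at 22.8 ± 12.0 TPM, from 28.4 and 31.1 TPM in A and B and 9.05 TPM in D.

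Of 13 genes for proteins known to bind or tune ASIC or PIEZO channels, 10 reached 1 TPM, where 55.5% of protein-coding genes did, and the median of the list was 14.3 ± 5.34 TPM. S100a10, whose product p11 aids surface delivery of ASIC1, led at 1892, 2180 and 3198 TPM (mean 2423 ± 686 TPM). The stomatin-like gene Stoml1 followed at 120 ± 43.1 TPM, then Mtmr2, a lipid phosphatase gene linked to PIEZO2 currents (30.8 ± 11.4 TPM), and Atp2a2, the gene of the calcium pump SERCA2 (30.1 ± 6.56 TPM). Stoml3, which encodes a stomatin-like protein that sensitises PIEZO channels in mature touch neurons, had no counts in any library, within the same limits. Of these 3 lists, 6 acid sensors, 10 force sensors and 10 partners passed the filter. None was called in the test between libraries, and none had an unadjusted p under 0.05 (edgeR goodness of fit).

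**Figure D5:**
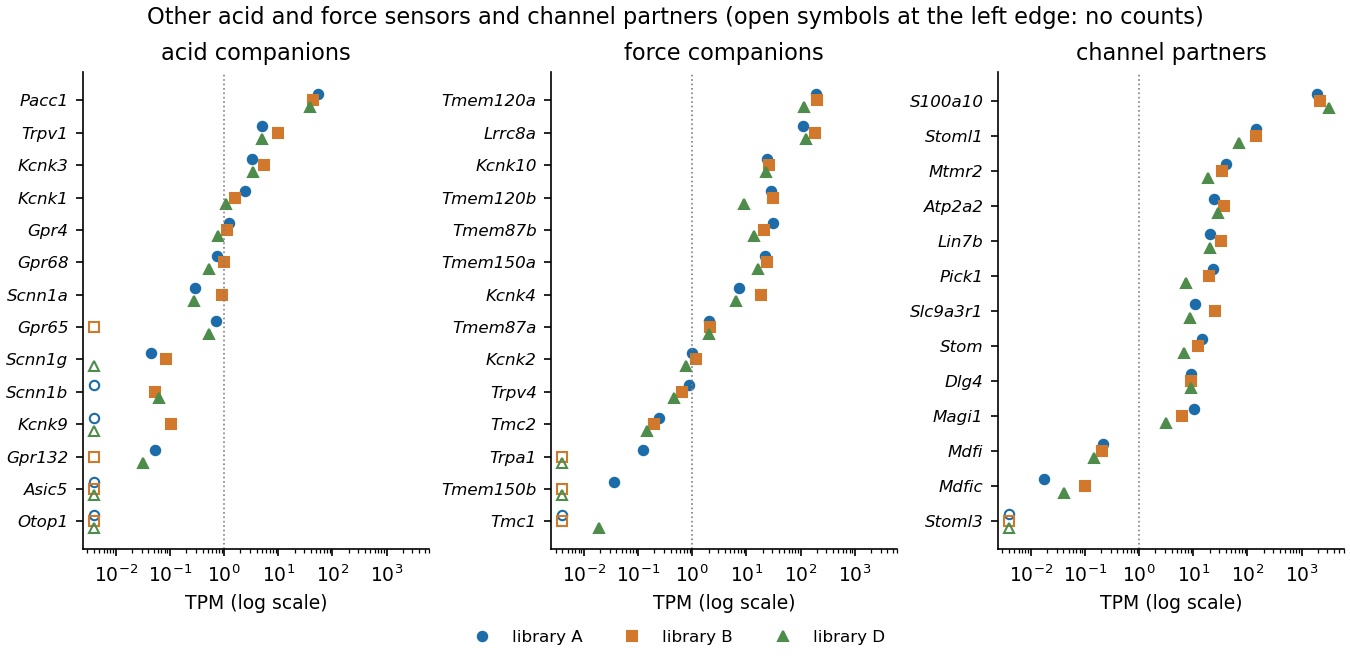
TPM on a log scale for the genes of 3 lists, other acid sensors (left panel, acid companions), other force sensors (middle panel, force companions) and channel partners (right panel), with 1 symbol per library, open symbols at the left edge for libraries with no counts and a dotted line at 1 TPM. Pacc1, Tmem120a and S100a10 lead their lists, and Asic5, Otop1 and Stoml3 have open symbols in all 3 libraries.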

How the data were processed

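Each library's deposited file holds unnormalised counts for Ensembl genes. The submitters' processing notes name Subread, featureCounts 1.4.5 and build GRCm38.p2; strand setting and handling of multiply mapped reads were not given in the sources used here. Libraries took 10 ng of RNA, SMARTer Ultra Low Input amplification and 12 PCR cycles, per the labels. The deposited CPM equalled each count scaled to the library total, and the deposited RPKM equalled that CPM per kilobase. The deposited length, in bases, equalled the merged exons for all 41388 genes, of which 40254 matched a symbol.

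TPM used counts and deposited lengths over all genes. Ratios were tested by exact permutation of the signs of the 3 libraries (two-sided), and counting intervals were exact (Clopper-Pearson for ratios, Poisson for levels, 95%). Variation between libraries used edgeR 4.0.16 in R 4.3.3 (TMM, filterByExpr, intercept-only fit, trended dispersion, chi-square with 2 degrees of freedom), tested on simulated data; log2 CPM had a prior count of 2. DESeq2 1.42.0, MAFFT 7.526, Biopython 1.88, Python 3.11.15 and matplotlib 3.10.9 were also used. The labels give pools of separate embryos, so p-values cover pool and technical spread together. The 10 members, the 3 companion lists and the 6 marker lists were chosen with earlier results of these data known. Named were all members, the 4 highest genes of each companion list and those without counts, and the highest and lowest marker of each cell type. With 3 libraries no measure of likeness was usable, so no genes of like pattern were named. A sequence comparison across the whole Asic family and the value of 1 marker gene are not reported here.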

Additional observations from a re-analysis of the deposited data

How the results depend on the processing

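All 10 paralog ratios kept their sign under each alternative tried: no length scaling (CPM), the longest coding transcript as length, lengths 200 bases shorter, counts thinned to the smallest library, 0.1 TPM added, unshared exonic bases as length (chosen after seeing the data), and each library left out. With libraries left out, the mean log2 ratio ranged from -1.51 to -0.81 for Asic1/Asic3, -2.86 to -2.68 for Asic2/Asic3, -7.89 to -6.63 for Asic4/Asic3, -1.87 to -1.35 for Asic2/Asic1, -6.38 to -5.82 for Asic4/Asic1, -5.03 to -3.96 for Asic4/Asic2, 8.47 to 8.68 for Piezo2/Piezo1, 7.49 to 7.99 for Tmem63b/Tmem63a, 0.73 to 1.396 for Tmem63b/Tmem63c and -6.76 to -6.60 for Tmem63a/Tmem63c. Thresholds of 0.5 and 5 TPM gave 8 and 7 of 10 channel genes. The median over the 10 genes was 41.4 as CPM and moved by less than its SD without mitochondrial and hemoglobin genes or without any 1 library. No channel gene was called as varying under any alternative (DESeq2 size factors, library totals alone, no filter, common dispersion, length trends removed, DESeq2 outliers, each library left out; lowest unadjusted p 0.0748, edgeR). Over all genes, the count of calls was 55 with length trends removed (also chosen after seeing the data), 4 as DESeq2 outliers, and 2 to 27 with a library left out (7 without A, 2 without B, 27 without D); the cause was not tested. Depth limits Asic4, Tmem63a and Piezo1, with at most 15 counts each in a library. No paired analysis was possible because there is only 1 group.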
